A study of Mus musculus with 2 samples.

Results

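The 10 transcripts described here are the mitochondrially encoded messenger RNAs mt-Nd1, mt-Nd2, mt-Nd3, mt-Nd4, mt-Nd5, mt-Cytb, mt-Co1, mt-Co2, mt-Co3 and mt-Atp6, chosen by name from the 14959 gene rows of a single-cell count table. They were followed in B16F10, a mouse melanoma line labelled as a highly metastatic subclone, and in B16F0, labelled as the parental line. Polyadenylated RNA of cultured cells was captured with the 10x Chromium 3' kit of chemistry v2, in which reads come from the 3' ends of messenger RNAs and each molecule counts once through its unique molecular identifier (UMI). Each line had 1 library, with 1574 cells of B16F10 and 2582 cells of B16F0, and neither label names a treatment or an allele. Each transcript was expressed as CPM, its UMIs scaled to a total of 1000000 UMIs in a library or class, and as its percentage of the summed UMIs of the 10, and the deposited cycling class, cluster and trajectory state of each cell set the classes compared within a line. With 1 library per line, no difference between the lines has a replicate check, and the intervals given are 95% counting intervals only.

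The mitochondrial genome encodes core subunits of 4 of the 5 complexes of oxidative phosphorylation, and every other subunit is encoded in the nucleus. Mitochondrial RNA polymerase copies nearly the whole of each strand as a long precursor. Transfer RNAs that punctuate the precursor are cut out, which frees most of the messenger RNAs, and these receive short poly(A) tails. Levels of single transcripts after cutting are set largely by their stability, so transcripts of 1 precursor can differ widely in abundance.

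The last 30 bases of 7 of the coding sequences are printed because a 3' tag reports the end of a transcript. They are the ends of the annotated genes, and where each messenger RNA ends was not measured. They are those of the 3 transcripts whose percentage of the sum differed most between the lines (mt-Nd5, mt-Co3 and mt-Nd2) and of 4 others, which show both kinds of end. They were read from the GRCm38 assembly with the GENCODE M21 annotation, on the strand of the gene. Capitals mark the stop codon, or the single T that becomes a stop codon only once the poly(A) tail adds its bases.
mt-Nd1, chrM:3678-3707: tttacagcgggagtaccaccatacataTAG
mt-Nd2, chrM:4922-4951: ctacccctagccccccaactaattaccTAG
mt-Co1, chrM:6843-6872: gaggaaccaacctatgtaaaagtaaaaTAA
mt-Atp6, chrM:8578-8607: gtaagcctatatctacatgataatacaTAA
mt-Co3, chrM:9361-9390: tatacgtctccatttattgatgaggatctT
mt-Nd5, chrM:13536-13565: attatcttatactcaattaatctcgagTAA
mt-Cytb, chrM:15259-15288: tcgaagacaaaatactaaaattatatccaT

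mt-Co3, mt-Nd4 and mt-Cytb end in such a lone T, and the other 7 hold a complete stop codon. All 10 are annotated as single exons on the plus strand of the mitochondrial chromosome. In map order they are mt-Nd1 (2751 to 3707), mt-Nd2 (3914 to 4951), mt-Co1 (5328 to 6872), mt-Co2 (7013 to 7696), mt-Atp6 (7927 to 8607), mt-Co3 (8607 to 9390), mt-Nd3 (9459 to 9806), mt-Nd4 (10167 to 11544), mt-Nd5 (11742 to 13565) and mt-Cytb (14145 to 15288). mt-Atp6 and mt-Co3 overlap by 1 base, with no transfer RNA between them. mt-Nd1 and mt-Nd2 each share 2 bases with the transfer RNA that follows on the same strand. The gene after mt-Nd5 is mt-Nd6 on the opposite strand, and mt-Co1 is followed by a transfer RNA gene on the opposite strand. Directly after mt-Nd5 and mt-Co1, then, no transfer RNA of the same strand marks an end of the messenger RNA. Tags past the annotated end of a gene might not be counted for it. A-rich stretches inside a gene can also prime reverse transcription, and the longest uninterrupted run of A was 8 bases in mt-Nd2, 7 in mt-Co1, mt-Nd4 and mt-Nd5, and 6 in mt-Nd1.

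Nuclear copies make some of these counts uncertain. A sequence search against all annotated mouse transcripts found a nuclear pseudogene at 95% identity or more over at least 200 bases for 8 of the 10. For mt-Atp6, mt-Co2, mt-Co3 and mt-Nd4 a copy on chromosome 1 was identical over its aligned length, of 678, 681, 783 and 876 bases. The copies of mt-Nd3 and mt-Co1 there were 99.7% and 99.8% identical. mt-Nd1 and mt-Cytb had no copy at this level. None of the 10 copies found is a row of the count table, and how reads with 2 equal matches were treated is not stated in the sources used here.

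The libraries held 56748682 UMIs in B16F10 and 94268486 in B16F0, with a median of 34950.5 UMIs per cell in B16F10 and 35503.5 in B16F0, so 3 counts correspond to 0.0529 CPM in B16F10 and 0.0318 CPM in B16F0. All 8 melanocytic markers looked for, among them Mitf and Pmel, were present in both. Markers of fibroblasts, macrophages and endothelial cells summed to at most 6.82 CPM each, and no row of the table was a marker of T and NK cells or keratinocytes. Ribosomal protein genes took 26.2% of UMIs in B16F10 and 28.4% in B16F0. The highest share of the 10 transcripts in any cell was 19.9% in B16F10 and 19.7% in B16F0, and all but 16 cells of each line lay above 1%. Both maxima lie just under 20%, and genes per cell ran from 3011 to 6977 in B16F10 and from 3012 to 6996 in B16F0. Whether cells beyond such limits had been removed is not stated in the sources used here. The upper range of the share, and with it the SD and counts of high cells, may therefore be cut.

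The 10 transcripts together took a larger share of the messenger RNA counts in B16F10. They accounted for 3834968 UMIs, 6.76% of the library, in B16F10 and for 5086743 UMIs, 5.40% of the library, in B16F0. Per cell the share ran from 0.0241% over a median of 6.69% to 19.9% in B16F10 and from 0.0410% over a median of 5.34% to 19.7% in B16F0. The cells of the lines overlapped widely, but B16F10 reached further up: 187 cells, 11.9%, exceeded 10% in B16F10, against 25 cells, 0.968%, in B16F0. The SD over cells was 2.54 percentage points in B16F10 and 1.58 in B16F0. The pooled share was 25.2% higher in B16F10, a log2 ratio of 0.32 (95% counting interval 0.32 to 0.33), while the median gene was at 0.12 among the 5296 that reached 20 CPM in either library.

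Of the 10 transcripts, 8 stood at least 25% higher in B16F10, where 28.5% of all genes tested did. 1 of them, mt-Nd5, was at least 1.5-fold higher, where 10.6% of genes were, and 0 stood at least 20% lower, where 15.4% of genes did. Scaling by edgeR's TMM factors or DESeq2's size factors moved every gene by a log2 value of -0.10 and left 4 of the 10 at 25% higher, beside 20.1% of genes under TMM and 19.7% under size factors. Genes past these limits then numbered 1066 higher and 1102 lower under TMM, against 1511 higher and 814 lower by library totals. The 4 were mt-Nd2, mt-Nd3, mt-Nd5 and mt-Co1. Under both scalings 0 of the 10 were at least 1.5-fold higher, since mt-Nd5 then stood at 0.54 under TMM and 0.53 under size factors. The summed share kept a log2 ratio of 0.23 under TMM and 0.22 under size factors.

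Over whole libraries, the subunits of complex I, the NADH dehydrogenase at which electrons enter the chain, moved furthest as a group. Their 5 transcripts summed to 14228 CPM in B16F10 and 10715 CPM in B16F0, a log2 ratio of 0.41. Complexes III and V are represented by 1 transcript each. Within cluster C4 the order differed, with mt-Nd1 the lowest of the 10 at 0.56 and mt-Co1 the highest at 1.04. mt-Nd5, a proton-pumping subunit of the membrane arm, stood at 286 CPM in B16F10 and 184 CPM in B16F0, the highest ratio of the 10 at 0.63 (0.60 to 0.66). mt-Nd2, another antiporter-like subunit, stood at 1786 CPM in B16F10 and 1277 CPM in B16F0, a log2 ratio of 0.48 (0.47 to 0.50). mt-Nd3, a small subunit near the quinone site, had 303 CPM in B16F10 and 225 CPM in B16F0, a log2 ratio of 0.43 (0.40 to 0.46). mt-Nd1, which helps to form the quinone-binding site, and mt-Nd4, also antiporter-like, both had a log2 ratio of 0.39. For mt-Nd1 the levels were 7076 CPM in B16F10 and 5384 CPM in B16F0. For mt-Nd4 they were 4777 CPM in B16F10 and 3644 CPM in B16F0.

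mt-Cytb encodes cytochrome b, the mitochondrially encoded subunit of complex III. It reached 10222 CPM in B16F10 and 8297 CPM in B16F0, a log2 ratio of 0.30 (0.30 to 0.31), just under 25%. The 3 subunits of complex IV, cytochrome c oxidase, summed to 22497 CPM in B16F10 and 18667 CPM in B16F0 and did not move alike. mt-Co1, which holds the haem groups where oxygen is reduced, stood at 7802 CPM in B16F10 and 5758 CPM in B16F0, a log2 ratio of 0.44 (0.43 to 0.44). mt-Co2, which takes electrons from cytochrome c, stood at 5150.2 CPM in B16F10 and 3951 CPM in B16F0, a log2 ratio of 0.38 (0.38 to 0.39). mt-Co3, a core subunit without a redox centre, stood at 9545 CPM in B16F10 and 8959 CPM in B16F0, the lowest ratio of the 10 at 0.09 (0.09 to 0.10), and this sign flipped to -0.01 under both TMM and size factors. mt-Atp6, the proton channel subunit of the ATP synthase, was the most abundant with 20632 CPM in B16F10 and 16281 CPM in B16F0, a log2 ratio of 0.34 (0.34 to 0.35).

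**Figure D1:**
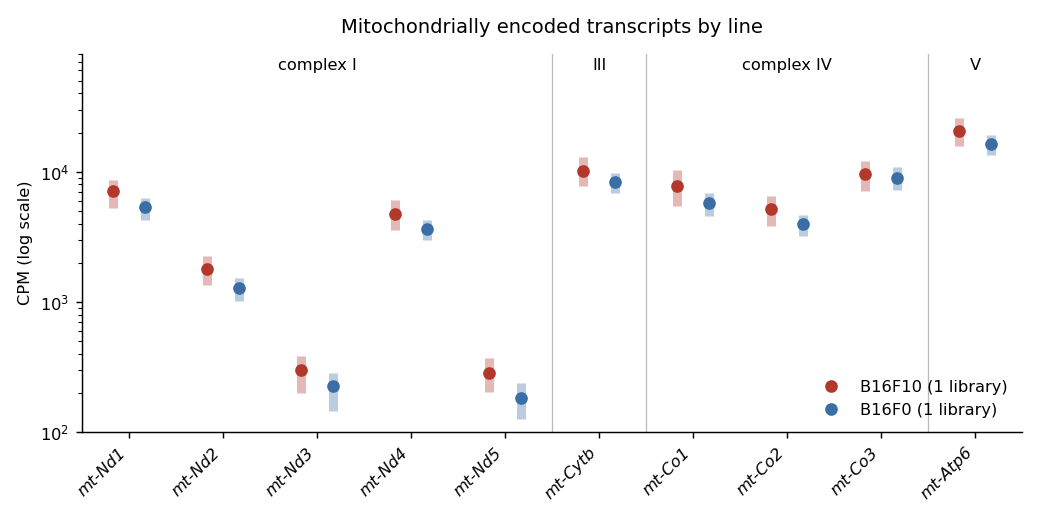
Level of each transcript in CPM on a log axis, ordered by complex, with B16F10 left of B16F0. Points are the pooled libraries and bars span the middle 50% of cells; mt-Co3 is the pair that lies closest, at 9545 in B16F10 and 8959 in B16F0, a difference whose sign flips under TMM and size factors.

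Per length of the gene, mt-Atp6 led with 30296 CPM per kb in B16F10 and 23908 CPM per kb in B16F0. mt-Nd5 came last, with 157 CPM per kb in B16F10 and 101 CPM per kb in B16F0. The order between them was mt-Co3, mt-Cytb, mt-Co2, mt-Nd1, mt-Co1, mt-Nd4, mt-Nd2 and mt-Nd3 in both lines. A 3' tag gives about 1 UMI per captured molecule whatever the length, so this scale favours short genes. Where the messenger RNA of mt-Nd5 ends was not measured, and tags past its annotated end may be missing from its count.

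The other 3 mitochondrially encoded messenger RNAs are few by this method, and the 10 held 99.7% of all mitochondrially encoded UMIs in both lines. mt-Nd4l, translated from the same messenger RNA as mt-Nd4, had 99.7 CPM in B16F10 and 80.4 CPM in B16F0, a log2 ratio of 0.31. mt-Atp8, translated from the same messenger RNA as mt-Atp6, had 70.0 CPM in B16F10 and 57.3 CPM in B16F0, a log2 ratio of 0.29. mt-Nd6, the light-strand transcript opposite mt-Nd5, had 11.7 CPM in B16F10 and 8.22 CPM in B16F0, a log2 ratio of 0.51 (0.36 to 0.66). Reads of mt-Nd4l and mt-Nd4, and of mt-Atp8 and mt-Atp6, come from shared molecules whose 3' end lies in the second gene.

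As percentages of their own sum, in which the overall share cancels, the 10 were alike in most places and differed in a few. mt-Atp6 made up 30.5% of the sum in B16F10 and 30.2% in B16F0, and mt-Cytb made up 15.1% in B16F10 and 15.4% in B16F0. mt-Co3 made up 14.1% of the sum in B16F10 and 16.6% in B16F0, a log2 ratio of -0.23 (-0.24 to -0.23). mt-Nd5 made up 0.423% in B16F10 and 0.341% in B16F0, a log2 ratio of 0.31 (0.28 to 0.34), and mt-Nd2 made up 2.64% in B16F10 and 2.37% in B16F0, a log2 ratio of 0.16. These 3 were the transcripts at least 1.1-fold apart between the lines. mt-Nd2 was not among them in non-cycling cells, at 0.11, or with clusters C3 and C4 weighted alike, at 0.081. mt-Co1, the fourth, made up 11.5% in B16F10 and 10.7% in B16F0, a log2 ratio of 0.11, and was 1.1-fold apart in those 2 settings, at 0.16 and 0.22. Since the percentages sum to 100, a lower value for an abundant transcript such as mt-Co3 goes with higher values elsewhere.

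**Figure D2:**
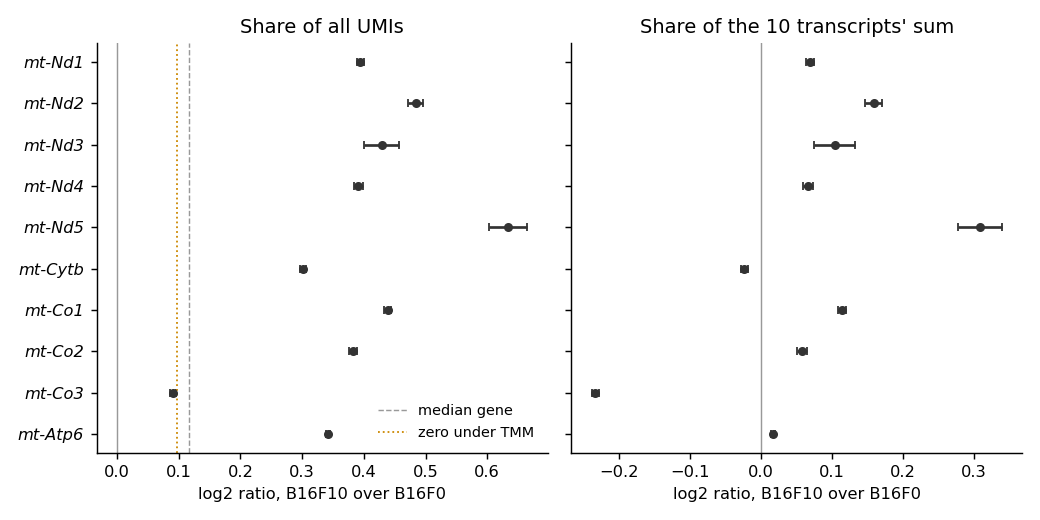
Log2 ratio of B16F10 over B16F0 for each transcript with 95% counting intervals, as a share of all UMIs on the left and as a share of the 10 transcripts' sum on the right. On the left all 10 lie right of 0, and mt-Co3 at 0.09 falls left of the dotted line that would be 0 under TMM scaling; on the right mt-Co3 lies at -0.23 and mt-Nd5 at 0.31.

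In B16F10 the cells of the deposited cycling class held a smaller share of the 10 transcripts than non-cycling cells. The pooled share was 6.56% in 1230 cycling cells and 7.58% in 344 non-cycling cells of B16F10, a log2 ratio of -0.21. Of the 10, 6 were at least 1.1-fold lower in cycling cells, as were 23.3% of genes tested, and the median gene lay at 0.11. mt-Co1 had 7452 CPM in cycling and 9233 CPM in non-cycling cells, the lowest ratio at -0.31. mt-Nd3 had 304 CPM in cycling and 300.1 CPM in non-cycling cells, a log2 ratio of 0.02, so its percentage of the sum was 0.463% in cycling and 0.396% in non-cycling cells. In B16F0 the pooled share was 5.34% in 1411 cycling cells and 5.46% in 1171 non-cycling cells, a log2 ratio of -0.03, and 0 of the 10 were 1.1-fold lower, where 21.4% of genes were. This small ratio was -0.01 in cells thinned to equal depth and -0.08 with ribosomal protein genes left out of the total. Thinning drops the cells with the fewest UMIs but leaves the expected share of each kept cell as it was, so it does not correct for depth. mt-Co1 was again lowest, at -0.08, and mt-Nd3 again highest, at 0.02. Cycling cells carried more UMIs in both lines. Medians were 36316 per cycling and 30188.5 per non-cycling cell in B16F10, and 37356 per cycling and 33745 per non-cycling cell in B16F0. The median count of the 10 transcripts was 2333.5 per cycling and 2327 per non-cycling cell in B16F10. In B16F0 it was 2030 per cycling and 1809 per non-cycling cell, opposite to the share. The part of depth in these shares was not tested.

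How the deposited clusters were made is not stated in the sources used here, and values by cluster are given as a description. In B16F10, cluster C4 (212 cells) held 8.41%, C3 (306 cells) 7.75% and C5 (1045 cells) 6.18%. C4 over C5 gave a log2 ratio of 0.44, with 9 of the 10 at least 1.1-fold higher, where 39.5% of genes were, and 8 at least 25% higher, where 25.5% were. The transcript with the smallest move was mt-Nd1, with 7291 CPM in C4 and 6777 CPM in C5, a log2 ratio of 0.11. The one with the largest was mt-Co1, with 10719 CPM in C4 and 6849 CPM in C5, a log2 ratio of 0.65. Accordingly mt-Nd1 made up 8.67% of the sum in C4, 9.90% in C3 and 11.0% in C5, whereas mt-Co1 made up 12.7% in C4, 12.3% in C3 and 11.1% in C5. C3 over C5 gave 0.33, with 9 of the 10 at least 1.1-fold higher, beside 25.3% of genes. C4 cells held a median of 29693 UMIs and C5 cells 37725, and the median count of the 10 transcripts per cell was 2687 in C4 and 2272 in C5. The part of depth in these shares was not tested.

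In B16F0 the clusters lay closer together, at 5.65% in C1 (816 cells), 5.62% in C2 (644 cells), 5.25% in C3 (640 cells) and 4.93% in C4 (469 cells). C1 over C4 gave a log2 ratio of 0.20, with 7 of the 10 at least 1.1-fold higher, beside 23.5% of genes. The median count of the 10 per cell was lower in C1, at 1869, than in C4, at 1981. Median UMIs per cell were 33731.5 in C1 and 38645 in C4, and the part of depth was not tested. The largest move was that of mt-Co3, with 9518 CPM in C1 and 7809 CPM in C4, a log2 ratio of 0.29. The composition varied little: the largest ratio between 2 clusters of B16F0 was 1.07 for mt-Co3, against 1.26 for mt-Nd1 between clusters of B16F10. C1 and C2 held 7 and 4 cells of B16F10 and C5 held 13 cells of B16F0, under the minimum of 50, and these were left out.

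**Figure D3:**
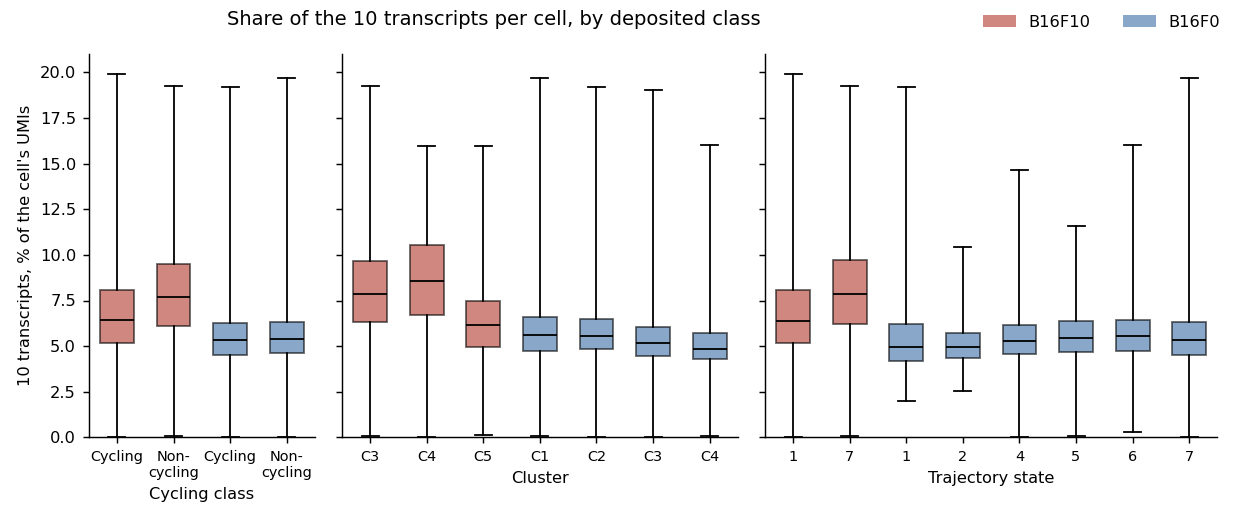
Percentage of a cell's UMIs that fell on the 10 transcripts, by cycling class, cluster and trajectory state, with B16F10 left of B16F0; boxes span the middle 50% of cells with the median, and whiskers reach the lowest and highest cell. The median of every B16F10 class shown, from 6.15% in cluster C5 to 8.57% in cluster C4, lies above those of all B16F0 classes shown.

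Trajectory states were deposited as numbers, and the 10 transcripts took a larger share of UMIs in state 7 than in state 1 in both lines. State 7 cells held fewer UMIs, with medians of 30097 against 36247.5 in state 1 in B16F10, and 32291.5 against 38376 in B16F0. The median count of the 10 per cell was 2414 in state 7 and 2322.5 in state 1 of B16F10. In B16F0 it was 1721 in state 7 and 1968 in state 1. The part of depth in these shares was not tested. In B16F10 the share was 7.78% in state 7 (319 cells) and 6.54% in state 1 (1254 cells), a log2 ratio of 0.25, with 9 of the 10 at least 1.1-fold higher, beside 23.7% of genes. The exception was mt-Nd3, with 299.98 CPM in state 7 and 304 CPM in state 1. In B16F0 the share was 5.48% in state 7 (454 cells) and 5.04% in state 1 (165 cells), a log2 ratio of 0.12, with 3 of the 10 at least 1.1-fold higher, beside 24.6% of genes. The remaining states of B16F0 held 5.01% in state 2, 5.29% in state 4, 5.51% in state 5 and 5.58% in state 6. State 6 over state 2, the widest pair, gave 0.16, with 5 of the 10 at least 1.1-fold higher, beside 22.5% of genes. With ribosomal protein genes left out of the total this ratio was 0.25. The median count of the 10 per cell was 1880 in state 6 and 2115.5 in state 2, with medians of 34463 and 41345.5 UMIs.

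**Figure D4:**
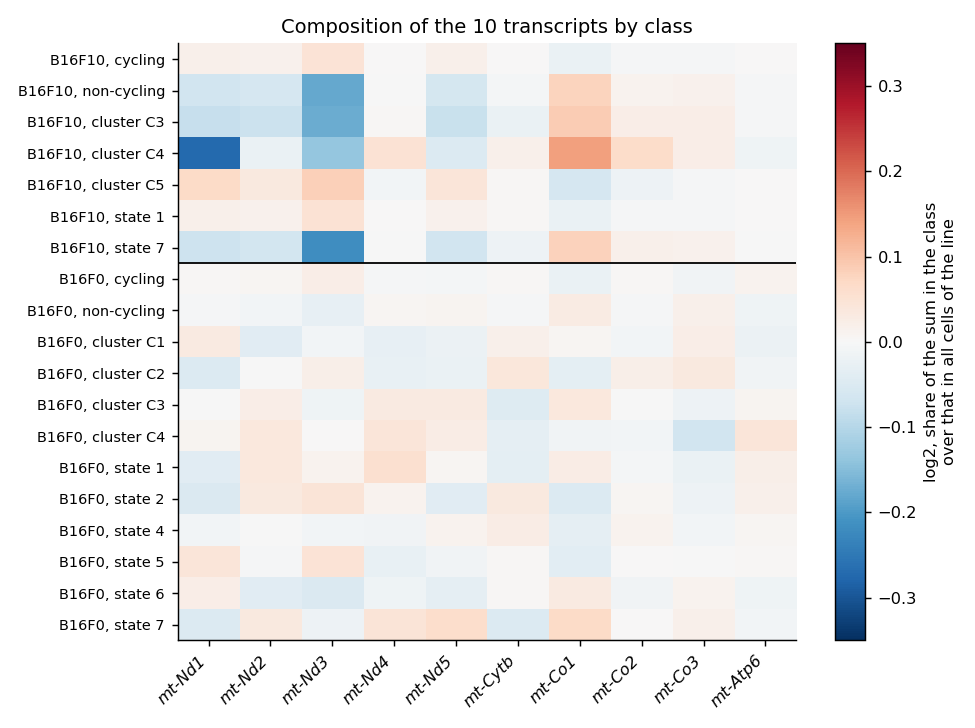
Log2 ratio of each transcript's percentage of the 10 transcripts' sum in a class over that in all cells of the line, with B16F10 classes above B16F0 classes. The deepest colours are those of mt-Nd1 in cluster C4 of B16F10, at 8.67% of the sum against 10.5% over the line, and of mt-Nd3 in state 7 of B16F10, at 0.386% against 0.448%.

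Within every class that held at least 50 cells of both lines the 10 transcripts took the larger share in B16F10. These classes hold subsets of the cells in the comparison of whole libraries and share cells with one another. In cluster C4 the share was 8.41% in B16F10 and 4.93% in B16F0, a log2 ratio of 0.77, and 10 of the 10 stood at least 25% higher, beside 32.3% of genes. In cluster C3 it was 7.75% in B16F10 and 5.25% in B16F0, a log2 ratio of 0.56, again with 10 of the 10, beside 21.8% of genes. Cycling cells gave 0.30, with 7 of the 10 beside 24.7% of genes, and non-cycling cells gave 0.47, with 9 of the 10 beside 25.3%. State 1 gave 0.38, with 9 of the 10 beside 17.1% of genes, and state 7 gave 0.51, with 9 of the 10 beside 18.7%. The lower percentage of mt-Co3 was present in each of these classes, for example 14.4% of the sum in B16F10 and 15.8% in B16F0 in cluster C4, and 14.3% in B16F10 and 16.8% in B16F0 in non-cycling cells.

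The share fell as the number of UMIs per cell grew. With the cells of each line split into 4 bins of equal size, from the fewest to the most UMIs, it was 8.07%, 7.57%, 6.57% and 5.79% in B16F10 and 5.91%, 5.68%, 5.40% and 5.02% in B16F0. In each bin the value was higher in B16F10. In B16F10 the non-cycling cells held more than cycling cells in every bin, from 7.70% in cycling and 8.73% in non-cycling cells of the first to 5.68% in cycling and 6.43% in non-cycling cells of the fourth. In B16F0 the sign varied, with 5.75% in cycling and 6.07% in non-cycling cells of the first bin but 5.81% in cycling and 5.58% in non-cycling cells of the second. The percentage of mt-Nd1 was 9.74% in the first and 11.4% in the fourth bin of B16F10, and that of mt-Co1 was 12.3% in the first and 10.9% in the fourth. In B16F0 mt-Nd1 stood at 9.90% in the first and 10.4% in the fourth bin, and mt-Co1 at 10.9% in the first and 10.8% in the fourth. mt-Co3 lay lower in B16F10 in every bin, with 14.2%, 14.9%, 14.2% and 13.4%, against 16.6%, 17.6%, 17.2% and 15.5% in B16F0.

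Single cells differed in composition by more than counting error for every transcript. Over the 1558 cells of B16F10 and 2566 cells of B16F0 with a share of at least 1%, the variance of mt-Co1's percentage of the sum was 19.9 times the counting variance in B16F10 and 8.61 times in B16F0. For mt-Co3 it was 16.4 times in B16F10 and 11.9 times in B16F0, and for mt-Nd1 12.9 times in B16F10 and 8.41 times in B16F0. For mt-Atp6 it was 12.5 times in B16F10 and 6.70 times in B16F0. The ratio was smallest for mt-Nd5, at 1.39 times in B16F10 and 1.32 times in B16F0. This ratio also grows with a transcript's count, and mt-Nd5 had a median of 10 UMIs per cell in B16F10 and 6 in B16F0. It therefore does not rank the transcripts by how much their percentages vary. Between the 5th and 95th percentile of cells mt-Co1 ran from 7.41% to 16.6% of the sum in B16F10 and from 7.88% to 14.0% in B16F0.

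Pairs of transcripts are described by Spearman's rho over these cells, which share a library and its depth. As CPM, all 45 pairs had a positive rho in both lines, with a median of 0.67 in B16F10 and 0.59 in B16F0, and mt-Nd4 with mt-Cytb reached 0.91 in B16F10 and 0.79 in B16F0. As percentages of the sum, which are bound to trade off against each other, the lowest rho was that of mt-Co3 with mt-Atp6, the overlapping neighbours on the map, at -0.73 in B16F10 and -0.70 in B16F0. mt-Co1 with mt-Cytb came next, at -0.53 in B16F10 and -0.51 in B16F0. The per-cell ratio of mt-Co3 to mt-Atp6 had a median of 0.476 in B16F10 and 0.570 in B16F0. Its 5th and 95th percentiles were 0.259 and 0.706 in B16F10 and 0.336 and 0.769 in B16F0.

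A small set of cells had almost none of these transcripts. In 16 cells of B16F10 and 16 of B16F0 the share was under 1%, a limit chosen after the values were seen. Their shares reached at most 0.346% in B16F10 and 0.789% in B16F0, and the next cell above had 1.81% in B16F10 and 1.61% in B16F0. They held 4 to 80 UMIs of the 10 transcripts in B16F10 and 7 to 149 in B16F0, in cells with a median of 18882 UMIs in B16F10 and 18546 in B16F0. Their median number of genes was 3248 in B16F10, against 5389.5 in its other cells, and 3214 in B16F0, against 5221 in its other cells. Malat1, a noncoding RNA retained in the nucleus and named after its values were seen, was also low in them, at 68.9 CPM in B16F10, against 4606 CPM in its other cells, and 39.4 CPM in B16F0, against 5353 CPM in its other cells. 7 of the 16 had 0 Malat1 UMIs in each line. Ribosomal protein genes took 27.0% of their UMIs in B16F10, against 26.2% in its other cells, and 29.8% in B16F0, against 28.4% in its other cells. 14 of the 16 fell in the cycling class in each line, which held 1230 of all 1574 cells in B16F10 and 1411 of all 2582 in B16F0. In B16F10, 14 of the 16 lay in cluster C4, which held 212 of its 1574 cells. In B16F0, 6 of the 16 lay in C4, which held 469 of its 2582 cells. Conversely, of 20 cells of B16F10 and 30 of B16F0 with Malat1 under 250 CPM, 15 in B16F10 and 16 in B16F0 had a share under 1%. Without these cells C4 over C5 in B16F10 gave 0.50 in place of 0.44, and the ratio between the lines was 0.33 in place of 0.32.

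**Figure D5:**
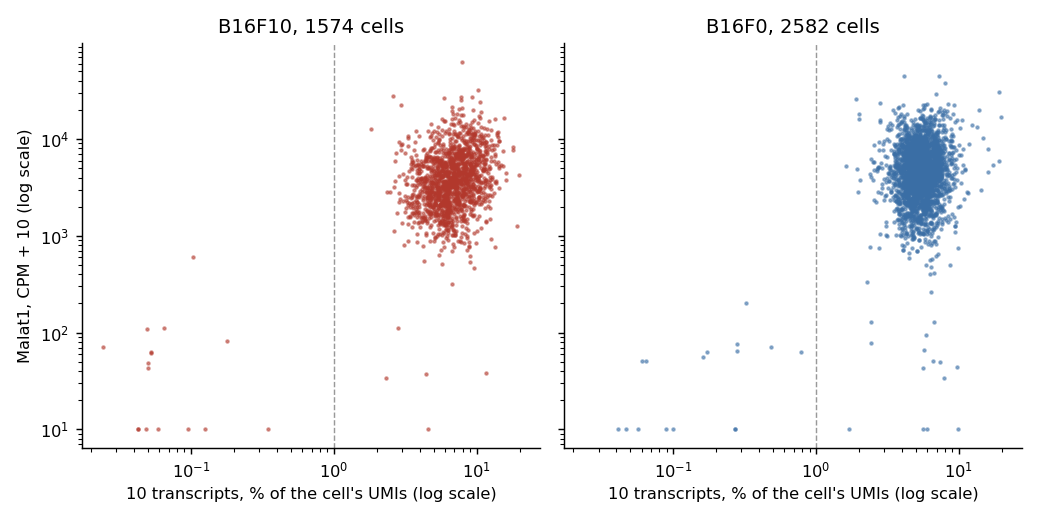
Each point is a cell, with the percentage of its UMIs on the 10 transcripts on a log axis and its Malat1 level in CPM plus 10 on a log axis, B16F10 left and B16F0 right. The 16 cells of each line left of the dashed line at 1% lie apart from the main cloud and low in Malat1.

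The genes whose level over cells was most like the sum of the 10 were found by Spearman's rho over cells thinned to 23173 UMIs, among genes with at least 1 UMI per cell on average. In B16F10, over 1416 cells, they were Rplp1 (0.56), Syt4 (0.49), Rplp0 (0.48), Chchd10 (0.47) and Uqcrq (0.45). The same genes had a lower rho in B16F0, at 0.31, 0.21, 0.35, 0.086 and 0.13 in that order. Rplp1 and Rplp0 encode proteins of the ribosomal stalk, Syt4 a synaptotagmin, Chchd10 a mitochondrial intermembrane space protein and Uqcrq a complex III subunit. In B16F0, over 2194 cells, the genes most like the sum were Rplp0 (0.35), Rpl41 (0.35), Rpl39 (0.32), Rplp1 (0.31) and Rps28 (0.27), all ribosomal protein genes. Among those at the other end were Hsp90ab1 (-0.60), Psma7 (-0.54), Ran (-0.53), Npm1 (-0.52) and Txn1 (-0.52) in B16F10 and Ran (-0.41), Ubb (-0.38), Prmt1 (-0.36) and Psma7 (-0.36) in B16F0. These encode, among others, a cytosolic chaperone, a proteasome subunit, a nuclear transport GTPase and ubiquitin. The cells share a library, and all values are parts of a fixed total, so a large share of some genes lowers the others.

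By library totals the nuclear genes for the respiratory chain and ATP synthase, complex II included, had a median log2 ratio near 0. Their median was -0.11 under TMM and -0.12 under size factors, against 0.02 and 0.01 for all genes. Of 76 that reached 20 CPM, 9 stood at least 25% higher and 14 at least 20% lower, beside 28.5% and 15.4% of genes. Under TMM these counts were 6 and 19 of the 76, beside 1066 and 1102 of 5296 genes. The 4 subunits of complex II had a median log2 ratio of 0.40. Of 76 nuclear respiratory chain and ATP synthase subunits that reached 20 CPM, 3 passed 1.5-fold upward and 3 downward in B16F10, beside 10.6% of all genes upward and 6.12% downward, and their median log2 ratio was -0.02, against 0.12 for all genes. Under TMM and under size factors 1, Ndufs1, was higher and 5 lower, beside 6.95% of all genes upward and 8.78% downward under TMM, and 6.61% upward and 8.87% downward under size factors. Ndufs1, the largest complex I subunit, stood at 45.3 CPM in B16F10 and 24.4 CPM in B16F0, a log2 ratio of 0.89. Sdhb, the iron-sulfur subunit of complex II, the complex with no mitochondrially encoded subunit, stood at 681 CPM in B16F10 and 434 CPM in B16F0, a log2 ratio of 0.65. Atp5g3, a copy of the c-ring subunit that faces mt-Atp6, stood at 592 CPM in B16F10 and 389 CPM in B16F0, a log2 ratio of 0.61. Atp5b, the catalytic beta subunit of the ATP synthase, stood at 538 CPM in B16F10 and 940.2 CPM in B16F0, a log2 ratio of -0.80. Cox4i1, which surrounds the core of complex IV, had 1262 CPM in B16F10 and 1965 CPM in B16F0 (-0.64), and Ndufs6, a complex I subunit, had 231 CPM in B16F10 and 366 CPM in B16F0 (-0.66). Log2 ratios short of 1.5-fold were -0.50 for Ndufb7 of complex I, 0.51 for Sdhd and 0.29 for Sdhc of the membrane anchor of complex II, -0.41 for Cox7c and -0.44 for Ndufa4 of complex IV, and -0.45 for Atp5g2, another copy of the c-ring subunit. No nuclear subunit of complex III, which holds mt-Cytb, passed 1.5-fold among the 9 measured. Those furthest from 0 were Uqcrb at -0.44, Uqcrfs1, the Rieske iron-sulfur protein, at -0.29 and Cyc1, cytochrome c1, at 0.21.

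Genes that copy, process and translate the mitochondrial genome were also set beside them. Some reached 20 CPM in 1 line only and so had to stand higher in that line, Mrps2 and Mrpl1 of the ribosome among them, and their values are a description. Of 16 genes of mitochondrial transcription and DNA maintenance with a row, 5 reached 20 CPM. Tefm, the elongation factor of mitochondrial RNA polymerase, reached it only in B16F0, with 14.3 CPM in B16F10 and 23.0 CPM in B16F0 (log2 ratio -0.68). Polg, the mitochondrial DNA polymerase, reached it only in B16F10, with 24.1 CPM in B16F10 and 17.4 CPM in B16F0 (0.47). Ssbp1, the mitochondrial single-strand binding protein, was at -0.44. By library totals 2 of the 5 stood at least 25% higher and 2 at least 20% lower, beside 28.5% and 15.4% of all genes. Their median log2 ratio was 0.28, against 0.12 for all genes. Of 20 genes of mitochondrial RNA processing and stability with a row, 10 reached 20 CPM. By library totals their median log2 ratio was 0.11, against 0.12 for all genes. Of the 10, 1 stood at least 25% higher and 3 at least 20% lower, beside 28.5% and 15.4% of all genes. The 3 with the largest absolute ratio, named next, were all lower in B16F10. Rexo2, an exonuclease that clears short RNA fragments, stood at 434 CPM in B16F10 and 697 CPM in B16F0 (-0.69). Fastkd3, an RNA-binding protein of mitochondria, reached 20 CPM only in B16F0, with 13.8 CPM in B16F10 and 21.2 CPM in B16F0 (-0.62). Hsd17b10, a part of mitochondrial RNase P, was at -0.44. Of the 64 mitochondrial ribosomal protein genes that reached 20 CPM, 2 were 1.5-fold higher by library totals, where 10.6% of all genes were, and 2 lower, where 6.12% were; the counts were 1 higher and 3 lower under TMM and 0 higher and 3 lower under size factors. Mrpl30 was at 0.68, Mrpl36 at -0.64 and Mrps2 at 0.63, the last with 26.0 CPM in B16F10 and 16.7 CPM in B16F0, under 20 CPM there. Of 9 biogenesis regulators 4 reached 20 CPM, and Ppargc1a and Esrra did so only in B16F10. Ppargc1a, a coactivator of mitochondrial biogenesis, had 124 CPM in B16F10 and 4.78 CPM in B16F0 (log2 ratio 4.70), and Esrra, a nuclear receptor that works with it, had 38.6 CPM in B16F10 and 19.3 CPM in B16F0 (0.998). Yy1, a transcription factor that also binds promoters of respiratory genes, was at 0.54.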

How the data were processed

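Per the file headers, the deposited files hold raw UMI counts of 4156 cells over 14959 genes, the same cells as natural log values, and class labels. The submitters' processing notes name mm10, Seurat 3.0 and Cell Ranger 3.0.0 without saying what each did. Filters on cells and the making of the classes are not stated in the sources used here. The deposited natural log values of the 10 transcripts equalled ln(1 + 10000 × count / cell total) to within 6.22e-15 and served only for that check. Cells were assigned to a line by the deposited cell table, and all were kept; no doublet caller was run. The same barcode occurred in both libraries 6 times.

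UMIs were summed per line or class. CPM carry exact Poisson intervals, percentages exact Clopper-Pearson intervals and ratios exact conditional binomial intervals, all at 95% and covering counting error only. No test was made, because cells of 1 library are no replicates; a fixed fold counted the genes that reached 20 CPM in either group, and classes needed 50 cells. Spread over counting was the variance of a percentage over cells divided by its mean binomial variance. For correlations with other genes, cells were thinned to 23173 UMIs, which left out 158 cells of B16F10 and 388 of B16F0. Named were the 10 transcripts, the other mitochondrially encoded ones, the 3 genes with the largest absolute ratio of each nuclear list and the 5 at either end of the correlations, of which 1 is not reported here; marker lists are given without their genes' values. Members and lists were chosen with earlier results of these data known. The ratio, interval and count steps were run on simulated Poisson counts. These hold counting error only, so that run says nothing about spread between cells or libraries. Gene positions and sequences came from GENCODE M21 on GRCm38. Tools were BLAST 2.17.0, DESeq2 1.42.0 and edgeR 4.0.16 in R 4.3.3, and matplotlib 3.10.9, pandas 2.3.3, scipy 1.17.1 and numpy 2.4.6 in Python 3.11.15.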

Additional observations from a re-analysis of the deposited data

Results flagged for a closer look

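Cluster C4 over cluster C3, the pair of clusters with at least 50 cells of both lines, ran in opposite directions in the lines. The log2 ratio of the summed share was 0.12 in B16F10, with 9 of the 10 transcripts higher in C4 and 1 lower, and -0.09 in B16F0, with 0 higher and 10 lower. Without the cells under 1% the values were 0.17 in B16F10 and -0.08 in B16F0. The difference was not tested, since each line has 1 library.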

How the results depend on the processing

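The log2 ratio of the summed share between the lines, 0.32, stayed positive under all 13 alternatives: 0.23 with TMM, 0.22 with size factors, 0.28 with ribosomal protein genes and 0.35 with mitochondrially encoded genes left out of the total, 0.35 as the mean of per-cell shares, 0.33 without the 5% deepest cells, 0.29 without the 25% with the fewest, 0.34 in thinned cells, 0.30 in cycling and 0.47 in non-cycling cells, 0.67 with clusters C3 and C4 weighted alike, and 0.33 without cells under 1%, an alternative chosen after seeing the data. The last weighting leaves out C5, which holds most B16F10 cells. The 8 transcripts at 25% higher became 4 under TMM, 4 under size factors and 1 at 1.5-fold; that 1, mt-Nd5, was short of 1.5-fold under TMM (0.54) and size factors (0.53). The count of 3 transcripts with a changed percentage of the sum was 3 or 4 in all 11 alternatives, but not always of the same transcripts: mt-Nd5 and mt-Co3 were among them in all 11, mt-Nd2 in 9, and mt-Co1 joined in thinned cells and took the place of mt-Nd2 in non-cycling cells (mt-Nd2 0.11) and with C3 and C4 weighted alike (mt-Nd2 0.081). Within lines every direction held under all 8 alternatives. The pairs of clusters and states among these were the classes with the highest and the lowest share. Their sign in the main setting was therefore set by that choice. Leaving mitochondrially encoded genes out of the total is no check of direction, within or between the lines. Nearly all UMIs of these genes belong to the summed share, so the order of pooled shares is kept almost by construction.

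In the order cycling over non-cycling in B16F10, C4 over C5 in B16F10, state 7 over state 1 in B16F10, then cycling over non-cycling, C1 over C4 and state 6 over state 2 in B16F0, log2 ratios were -0.29, 0.47, 0.34, -0.081, 0.26 and 0.25 without ribosomal protein genes in the total, -0.17, 0.49, 0.22, -0.010, 0.19 and 0.15 in thinned cells, and -0.15, 0.51, 0.20, -0.016, 0.18 and 0.14 without the 25% of cells with the fewest UMIs. Leaving mitochondrially encoded genes out of the total gave -0.23, 0.48 and 0.27 in B16F10 and 0.21 and 0.17 for the last pairs in B16F0. Means of per-cell shares gave -0.23, 0.38 and 0.27 in B16F10 and -0.036 and 0.16 for cycling and for states in B16F0. Without the 5% deepest cells the values were -0.21, 0.42 and 0.26 in B16F10 and -0.022 and 0.15 for the same pairs in B16F0. Without cells under 1%, C4 over C5 was 0.50, and B16F0 had -0.027 for cycling and 0.19 for C1 over C4. Causes were not tested.

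Of 130 ratios of single transcripts 2 reversed, both mt-Co3, to -0.0054 (TMM) and -0.011 (size factors). Of 109 ratios of percentages of the sum 5 reversed. With C3 and C4 weighted alike these were mt-Nd1 (-0.11), mt-Nd3 (-0.044), mt-Cytb (0.011) and mt-Atp6 (-0.018), and in non-cycling cells it was mt-Nd3 (-0.047). No paired analysis was possible because each line has 1 library. Among the 10, depth limits mt-Nd3 and mt-Nd5 most, with medians of 10 and 10 UMIs per cell in B16F10 and 7 and 6 in B16F0.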
